A study of Rattus norvegicus with 2 samples.

Results

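The 35 genes described here are type I interferon-stimulated genes, the antiviral programme that cells switch on when interferon-alpha or interferon-beta binds its receptor. They were taken from a list of gene symbols, and all 35 were found among the 25399 genes counted in a single-cell RNA-sequencing study of neonatal rat hearts. Hearts of Sprague-Dawley rats aged 1-3 days, males and females pooled, were digested with trypsin, and a Percoll gradient enriched the suspension for intrinsic cardiac adrenergic (ICA) cells, the catecholamine-making cells of the heart wall. The isolated cells received either saline (control) or 1 µg/ml lipopolysaccharide (LPS, an outer-membrane component of Gram-negative bacteria) for 2 h, and each treatment gave 1 library with the 10X Genomics 3′ v2 kit. No transgene or other allele is named for the animals, and the cells of both conditions went through the same isolation.

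The sample label names ICA cells, but by the authors' cell types most of the cells were fibroblasts. The deposited cell table holds 11 clusters, more than are counted in the text of the paper, and gives cell types to some of them, with fibroblasts in clusters 0, 1 and 7, ICA cells with cardiomyocytes in cluster 3, endothelial cells in clusters 4 and 5, macrophages in cluster 6, and no cell type in clusters 2, 8, 9 and 10. Cluster 0 held 6600 control and 7030 LPS cells, whereas cluster 7 held 104 and 144. The level of a gene is its unique molecular identifiers (UMIs, counted RNA molecules) summed over the cells of a cluster, per 1000000 UMIs of that cluster in that library (CPM). With 1 library per condition there were no replicates and no test, so the 95% intervals given cover only the error of counting, and the effect of LPS cannot be told apart from unequal handling of the samples. Median depth was 12479 UMIs per cell in the control and 9432 in the LPS library.

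Interferon binding activates the kinases JAK1 and TYK2, which phosphorylate STAT proteins. A complex of STAT proteins with IRF9 then enters the nucleus and binds the interferon-stimulated response element (ISRE) in the promoters of these genes. In macrophages, TLR4 is known to pass the LPS signal both to inflammatory genes and to interferon-beta. Many products of the interferon-stimulated genes detect or disable viral RNA, and others belong to the pathway that attaches the ubiquitin-like protein ISG15 to its targets.

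Promoters of 26 of the 35 genes could be matched by symbol in RefSeq (build GRCr8), each as the 300 bases from 250 before to 50 after the start of the gene. No entry was found for *Ddx58*, *Dhx58*, *Zbp1*, *Oas2*, *Mx2*, *Ifit2*, *Isg15*, *Usp18* and *Rtp4*. The ISRE core was searched on both strands, as GAAA, any 2 bases and GAAA, or as TTTC, any 2 bases and TTTC. It stood in 16 of the 26 promoters (61.5%), against 3.92% of all 33469 promoters of that length. The gamma-activated sequence, searched as TTC, any 3 bases and GAA, which reads the same on both strands, stood in 5 of the 26 (19.2%), against 8.87% of all promoters, and 4 genes held both motifs. The sequences below are the 4 promoters with an ISRE core whose genes had the highest summed CPM over all cells. They are written 5′ to 3′ on the strand of the gene, with the ISRE cores in capitals.
Oasl2 (chr12:47383136-47383435, minus strand): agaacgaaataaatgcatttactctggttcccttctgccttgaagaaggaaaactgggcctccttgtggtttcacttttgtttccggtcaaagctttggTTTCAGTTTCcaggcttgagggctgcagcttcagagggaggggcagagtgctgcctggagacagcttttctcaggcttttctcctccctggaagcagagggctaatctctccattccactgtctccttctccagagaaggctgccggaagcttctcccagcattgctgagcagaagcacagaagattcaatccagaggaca
Ifi44 (chr2:243303791-243304090, minus strand): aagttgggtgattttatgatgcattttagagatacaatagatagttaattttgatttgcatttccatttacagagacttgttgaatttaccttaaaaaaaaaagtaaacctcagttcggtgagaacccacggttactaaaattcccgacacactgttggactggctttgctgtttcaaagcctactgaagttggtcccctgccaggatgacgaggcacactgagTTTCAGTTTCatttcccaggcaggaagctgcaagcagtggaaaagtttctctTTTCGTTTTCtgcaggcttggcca
Parp14 (chr11:78407884-78408183, plus strand): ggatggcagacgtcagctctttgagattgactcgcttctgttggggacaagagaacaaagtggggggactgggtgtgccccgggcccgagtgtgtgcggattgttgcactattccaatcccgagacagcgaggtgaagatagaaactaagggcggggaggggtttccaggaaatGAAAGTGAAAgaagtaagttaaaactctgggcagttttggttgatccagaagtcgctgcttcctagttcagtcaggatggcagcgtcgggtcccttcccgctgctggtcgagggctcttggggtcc
Bst2 (chr16:18254918-18255217, minus strand): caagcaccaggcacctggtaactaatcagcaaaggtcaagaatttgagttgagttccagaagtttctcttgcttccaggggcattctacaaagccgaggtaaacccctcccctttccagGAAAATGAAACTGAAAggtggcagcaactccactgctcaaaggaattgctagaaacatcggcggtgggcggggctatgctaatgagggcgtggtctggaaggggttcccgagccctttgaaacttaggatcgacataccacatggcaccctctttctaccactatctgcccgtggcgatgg
The cores lay at bases -151 to -142 in *Oasl2*, -26 to -17 and 27 to 36 in *Ifi44*, -76 to -67 in *Parp14*, and -131 to -122 and -125 to -116, overlapping, in *Bst2*, counted from the start of the gene as base 1. These genes differed widely in their LPS to control ratio. In cluster 0 the ratio was 4.15 for *Oasl2* and 3.84 for *Parp14*, but 1.25 for *Ifi44* and 0.727 for *Bst2*. Of the promoters with a core, 15 belonged to genes with at least 50 UMIs in cluster 0, and 9 of these were at least 2-fold higher with LPS, with a median log2 ratio of 1.23. Of the promoters without one, 5 of 10 were, with a median of 1.01. Genes with no promoter entry could not be placed in either group. Of these, 6 of the 7 with at least 50 UMIs were at least 2-fold higher, with a median of 1.77. Of all genes in cluster 0, 3.43% were at least 2-fold higher. A match is a description of the letters in this window and not of a bound site.

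The summed level of the 35 genes was higher in the LPS library in all 11 clusters. In the main fibroblasts of cluster 0 it was 249 CPM (246 to 252) in control and 647 CPM (641 to 653) with LPS, and the ratio was 2.60 (2.56 to 2.64). The ratio lay between 1.90 in cluster 8 and 2.99 in cluster 9 in all clusters but cluster 6. In the macrophages of cluster 6 the sum was 391 CPM (369 to 414) in control and 2114 CPM (2057 to 2172) with LPS, and the ratio was 5.40 (5.08 to 5.76). The fibroblasts of cluster 7 stood highest in both libraries, with 1742 CPM (1675 to 1811) in control and 5050 CPM (4937 to 5164) in LPS cells. In control, cluster 7 was followed by the endothelial cells of cluster 4 at 642 CPM (628 to 658), and the intervals of each neighbouring pair from cluster 5 at 397 CPM down to cluster 8 at 283 CPM overlapped. With LPS the macrophages, among those overlapping neighbours in control, took the second place, above cluster 4 at 1793 CPM (1767 to 1820). *Oasl* alone made up 987 CPM of the sum in the LPS macrophages. Without *Oasl* and *Isg15* they had 738 CPM (704 to 772), below cluster 4 at 1292 CPM and cluster 5 at 828 CPM. Clusters were formed on the same cells, and these genes may have been among those used, so that differences between clusters are a description.

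**Figure D1:**
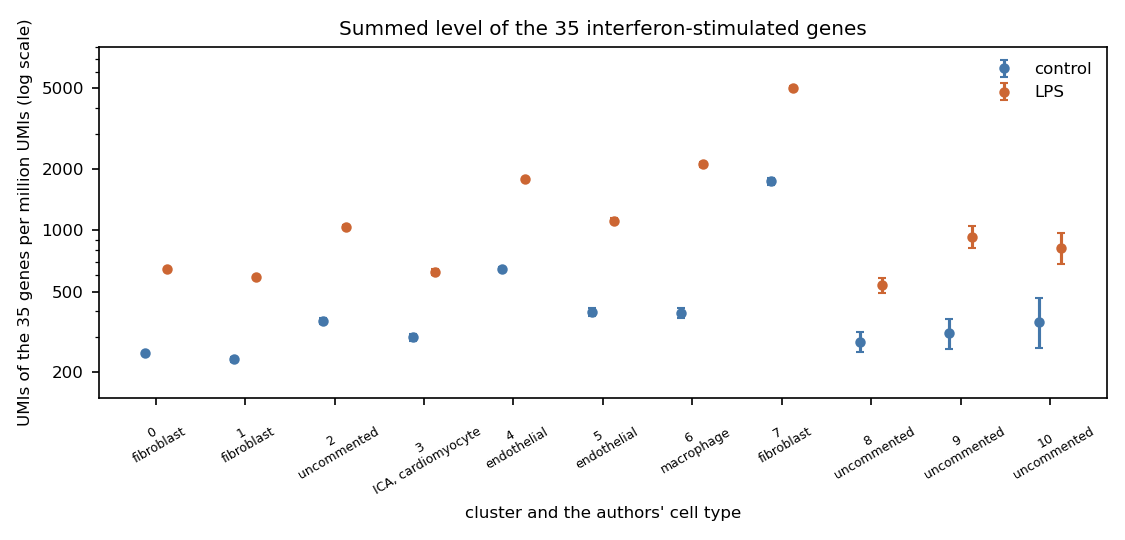
Summed UMIs of the 35 genes as CPM (log scale) in each cluster, for the control (blue) and the LPS (orange) library, with 95% Poisson intervals that cover counting error only. The LPS value is above the control value in all 11 clusters, cluster 7 is highest in both libraries, and the widest gap is in cluster 6, from 391 to 2114 CPM.

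Free RNA in the droplet fluid and cells captured together can carry transcripts from one class to another. The 8 fibroblast markers summed to 33.4% of their cluster 0 level in the control macrophages and 27.8% in the LPS macrophages, and to 28.1% and 22.1% in the endothelial cells of cluster 4. In the macrophages 29 of 29 of the antiviral genes in control and 30 of 31 in LPS cells stood above that share of their own cluster 0 level, among genes with at least 50 UMIs in both clusters together. As 94.00% and 93.01% of all genes did so too, these counts say nothing particular of the antiviral genes. Paralogues such as *Oasl* and *Oasl2*, *Mx1* and *Mx2*, or *Ifit2* and *Ifit3* can share reads, and how such reads were counted is not given in the sources used here. The part of carried-over RNA in single values was not tested, and as every cluster held these genes, none could serve as a class that lacks them. The libraries shared 194 cell barcodes, and 10 cells without a cluster held 2 UMIs of the 35 genes in all.

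Among the genes with at least 50 UMIs in a cluster over both libraries, a 2-fold difference was used as the limit. The 35 genes were chosen with earlier results of these data known, so the counts past this limit are a description. In cluster 0, 20 of the 32 measured genes were at least 2-fold higher with LPS and none was 2-fold lower, against 3.43% of all 12247 genes higher and 9.01% lower. Their median log2 ratio was 1.33, and that of all genes was -0.13. Similar counts were found in other clusters, with 18 of 28 in cluster 1 (3.22% of all genes), 18 of 27 in cluster 2 (2.83%) and 13 of 24 in cluster 3 (1.68%). There were 18 of 30 in cluster 4 (2.63%), 17 of 25 in cluster 5 (4.19%) and 20 of 26 in cluster 7 (4.56%). In the macrophages 9 of 20 genes were (4.81% of all genes), and none was 2-fold lower (12.1% of all genes). With a minimum of 20 UMIs the macrophage count was 14 of 27 (4.7% of all genes). Of the small clusters, cluster 8 had 1 of 4 (2.35%) and cluster 9 had 1 of 1 (2.69%), that 1 gene being *Isg15* in both, and in cluster 10 none of the 35 reached 50 UMIs. *Oas2*, *Oas3* and *Zbp1* stayed below 50 UMIs in each cluster.

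**Figure D2:**
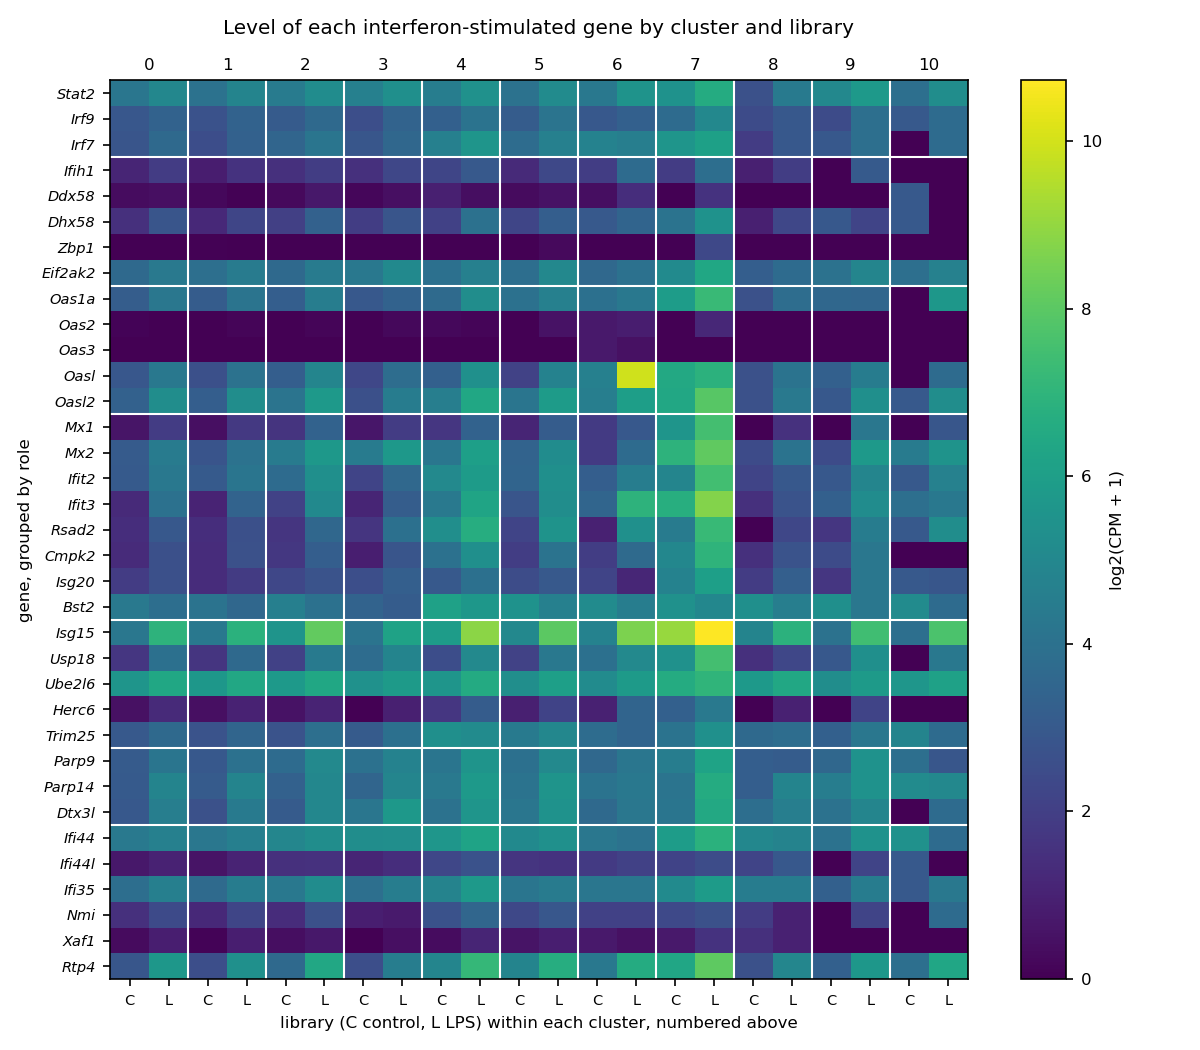
Level of each of the 35 genes as log2(CPM + 1), colour scale at right, in control (C) and LPS (L) cells of the 11 clusters, with white lines between clusters and between groups of genes by role. The LPS columns are brighter than the control columns for most rows, cluster 7 is bright in both libraries, *Oasl* stands out in LPS macrophages of cluster 6, and the *Bst2* row is darker with LPS.

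Among the ISG15 system, *Isg15* (ENSRNOG00000021802) codes for the ubiquitin-like modifier itself. In cluster 0 it had 18.3 CPM in control and 122 CPM in LPS cells, a ratio of 6.68 (6.34 to 7.05). In the endothelial cells of cluster 4 it had 60.5 and 461 CPM, and in the macrophages 26.3 and 389 CPM, a ratio of 14.8 (11.8 to 18.7). It was at least 2-fold higher with LPS in all 10 clusters where it reached 50 UMIs, and its share of the summed UMIs of the 35 genes was 9.30% in control and 21.7% in LPS cells. *Usp18*, the protease that removes ISG15 and restrains signalling at the interferon receptor, went from 2.24 to 14.5 CPM in cluster 0 and was at least 2-fold higher in 8 of 8 clusters. *Ube2l6*, the conjugating enzyme of the pathway, differed less, at 47.7 CPM in control and 82.3 CPM in LPS cells of cluster 0, a ratio of 1.72 (1.66 to 1.79). *Herc6*, a ligase, had 0.398 and 1.45 CPM there. *Trim25*, a ubiquitin ligase that acts on the RNA sensor RIG-I, was higher in cluster 0 at 7.08 and 11.6 CPM. In the macrophages it had 12.8 CPM in control and 10.1 CPM in LPS cells, a ratio of 0.783 whose interval (0.455 to 1.32) includes 1. In cluster 4 it had 40.1 and 34.9 CPM, a ratio of 0.871 whose interval (0.754 to 1.01) also includes 1.

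The signal transducers of the pathway had the lowest ratio of the 7 role groups in cluster 0, with a summed level of 29.9 CPM in control and 51.7 CPM in LPS cells (1.73, 1.65 to 1.82). *Stat2*, a subunit of the ISRE-binding complex, had 17.3 CPM in control and 30.4 CPM in LPS cells of cluster 0, a ratio of 1.76 (1.64 to 1.87). *Irf9*, the DNA-binding subunit, had 6.44 and 9.46 CPM, a ratio of 1.47 (1.31 to 1.64). *Irf7*, the factor that amplifies interferon transcription, had 6.15 and 11.9 CPM there, a ratio of 1.93 (1.73 to 2.15), and none of these genes reached 2-fold in cluster 0. In the macrophages *Irf7* had 26.0 CPM in control and 22.9 CPM in LPS cells, and its interval (0.617 to 1.25) includes 1.

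Of the RNA sensors, *Dhx58* (LGP2) had the largest ratio in cluster 0, with 1.81 CPM in control and 6.20 CPM in LPS cells, a ratio of 3.42 (2.85 to 4.11). *Ifih1* (MDA5) had 1.14 and 2.79 CPM. *Ddx58* (RIG-I) had 24 and 27 UMIs in all of cluster 0, with no detectable difference at this depth. *Eif2ak2* (PKR), the kinase that stops translation upon double-stranded RNA, had 11.6 and 19.3 CPM, a ratio of 1.66 (1.53 to 1.80). *Zbp1*, the Z-form nucleic acid sensor, was nearly absent, and 6 of the 9 UMIs of the LPS library lay in cluster 7, against 0 in the control cells of that cluster.

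The oligoadenylate synthetase family had a summed ratio of 3.12 (2.97 to 3.28) in cluster 0 and of 17.0 (14.7 to 19.8) in the macrophages. *Oas1a*, which makes the second messenger that activates RNase L, had 8.06 CPM in control and 18.0 CPM in LPS cells of cluster 0, whereas *Oas2* had 7 and 2 UMIs and *Oas3* had 0 in both. *Oasl2*, a member of the family with ubiquitin-like domains, had 8.97 and 37.2 CPM in cluster 0 and was at least 2-fold higher in 8 of 8 clusters. *Oasl*, its relative, had 6.61 CPM in control and 18.7 CPM in LPS cells of cluster 0. In the macrophages it had 24.4 CPM (76 UMIs) in control and 987 CPM (2453 UMIs) in LPS cells, a ratio of 40.4 (32.2 to 51.5). The macrophages were 2.29% of the LPS library's cells and held 47.4% of its *Oasl* UMIs, against 6.62% in the control library.

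To make cells of different depth comparable, 3000 UMIs were drawn at random from each cell, which left out 79 shallower LPS cells. At this depth *Oasl* was seen in 4.98% (2.75 to 8.22) of control macrophages and in 79.3% (74.2 to 83.8) of LPS macrophages. The shares were 2.02% and 5.07% in cluster 0. Without thinning they were 21.0% and 90.4% in the macrophages and 8.27% and 16.8% in cluster 0. *Oasl* in the LPS cells of the other clusters ranged from 1.27% to 11.9% of its macrophage level, and *Il1b*, the macrophage cytokine, from 0.0792% to 0.533%. Without *Oasl* the log2 ratio of the summed genes in macrophages was 1.62, against 2.43 with it, and without *Oasl* and *Isg15* the ratio was 2.17 (2.01 to 2.34), against 2.26 for cluster 0 treated alike.

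Among the antiviral effectors, *Ifit3*, a member of the family that binds viral RNA, had 1.43 CPM in control and 15.1 CPM in LPS cells of cluster 0, a ratio of 10.6 (8.85 to 12.8), the largest of the 32 measured genes there. In the macrophages it had 10.3 and 121 CPM. *Ifit2* of the same family had 7.24 and 18.8 CPM in cluster 0. *Mx1* and *Mx2*, dynamin-like GTPases that block viral replication, had 0.519 and 2.71 CPM and 7.37 and 21.0 CPM in cluster 0. *Isg20*, an exonuclease, had 2.71 and 5.06 CPM, a ratio of 1.87.

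*Rsad2* (viperin), a radical SAM enzyme that makes a chain-terminating nucleotide, was held to a large part by the endothelial cells of cluster 4. In the control library 61.1% of its UMIs lay in this cluster, which held 6.27% of the cells, and in the LPS library 42.8%. Its level in cluster 4 was 38.7 CPM in control and 101 CPM in LPS cells, a ratio of 2.63 (2.34 to 2.95), and in cluster 0 it was 1.65 and 6.86 CPM. The macrophages had 3 UMIs in control and 101 UMIs in LPS cells, or 0.963 and 40.6 CPM, a ratio of 42.2 with a wide interval (14.0 to 208). *Cmpk2*, the nucleotide kinase gene next to *Rsad2*, had 1.47 and 5.19 CPM in cluster 0.

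*Bst2* (tetherin), the membrane protein that holds budding virus on the cell, went the other way. In cluster 0 it had 18.9 CPM in control and 13.8 CPM in LPS cells, a ratio of 0.727 (0.672 to 0.787), and in cluster 4 it had 69.2 and 50.4 CPM. It was lower with LPS in all 9 clusters where it reached 50 UMIs, with ratios from 0.575 to 0.786, and 7 of the 9 intervals lay below 1. It was also below the median gene in 9 of 9 clusters. No other of the 35 genes had an interval below 1 in a cluster where it reached 50 UMIs.

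**Figure D3:**
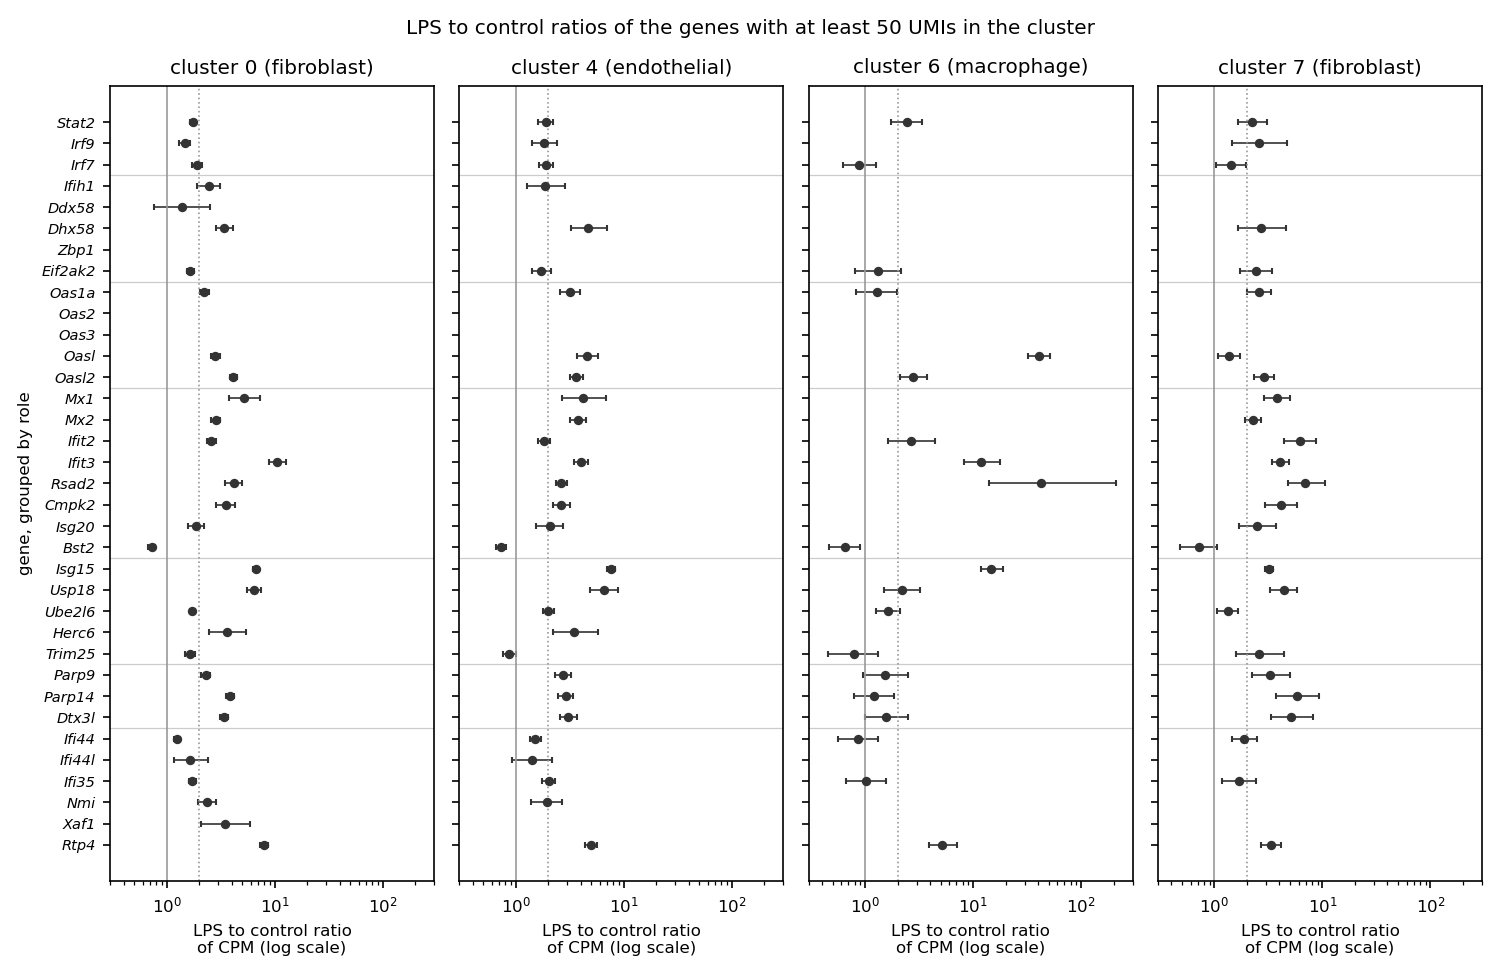
LPS to control ratio of CPM (log scale) with exact 95% intervals, counting error only, for the genes with at least 50 UMIs in clusters 0, 4, 6 and 7, the solid line marking a ratio of 1 and the dotted line 2. *Bst2* lies left of 1 in each panel, and the macrophage panel spreads from *Bst2* at 0.644 to *Oasl* at 40.4 and *Rsad2* at 42.2.

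The genes of the PARP9 and DTX3L complex, a mono-ADP-ribosylating pair that works with interferon signalling, were at least 2-fold higher together with *Parp14* in cluster 0. *Dtx3l* had 6.73 CPM in control and 22.9 CPM in LPS cells, *Parp9* had 7.45 and 17.2 CPM, and *Parp14* had 7.22 and 27.7 CPM. In the macrophages the ratios of these genes were 1.57, 1.54 and 1.20, and all 3 intervals include 1. Of the remaining genes, *Rtp4*, which codes for a Golgi chaperone, had 566 UMIs in control and 3688 UMIs in LPS cells of cluster 0, a ratio of CPM of 7.99 (7.32 to 8.75), and was at least 2-fold higher in 8 of 8 clusters. *Ifi35* and its partner *Nmi* had 13.7 and 23.8 CPM and 1.80 and 4.24 CPM in cluster 0. *Xaf1*, a gene linked to apoptosis, had 22 and 62 UMIs there. *Ifi44* had 19.4 and 24.3 CPM, a ratio of 1.25 (1.17 to 1.34), and its relative *Ifi44l* had 0.619 and 1.03 CPM.

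The macrophages combined the largest ratios of single genes with the lowest count past 2-fold among clusters 0 to 7. *Isg15*, *Oasl*, *Rsad2*, *Ifit3*, *Rtp4*, *Oasl2*, *Stat2*, *Ifit2* and *Usp18* were at least 2-fold higher, with *Usp18* at 14.8 and 32.2 CPM. *Irf7*, *Ifi44*, *Bst2* and *Trim25* had lower levels with LPS, with *Ifi44* at 18.3 and 15.7 CPM, and of these 4 only the *Bst2* interval lay below 1. The median gene of the macrophages had a log2 ratio of -0.30. *Irf7* at -0.18 and *Ifi44* at -0.22 differed from it by no more than their counting error. The median log2 ratio of the 20 measured genes was 0.67, against 1.33 over 32 genes in cluster 0. These medians cover different sets of genes, because genes below 50 UMIs in a cluster were left out. With a minimum of 20 UMIs, 14 of 27 genes were at least 2-fold higher in the macrophages.

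The fibroblasts of cluster 7 held these genes at a high level without LPS. Cluster 7 made up 0.902% of control cells and 1.13% of LPS cells, but held 5.45% and 7.10% of the UMIs of the 35 genes. Of all *Mx1* UMIs, 37.4% in the control library and 35.6% in the LPS library lay there. In control these were 70 UMIs, seen in fewer than 25% of the cells of cluster 7, against 70.1% of its LPS cells. The control share and ratio of *Mx1* thus rest on a minority of the cells placed there. The summed level of cluster 7 was between 6.71 and 7.29 times that of cluster 0 in control (95% interval) and 7.80 times (7.62 to 7.99) in LPS cells. For single genes the ratio of cluster 7 to cluster 0 ranged in control from 1.91 for *Irf9* to 92.3 for *Mx1*, with a median of 5.54 over 29 genes, and in LPS cells from 1.24 for *Nmi* to 66.5 for *Mx1*, with a median of 5.34 over 31 genes. Of the 35 genes, 29 had their highest level of all cluster and library pairs in the LPS cells of cluster 7. Among genes with at least 50 UMIs over both libraries this held for 27 of 32 of them and for 2.56% of all 13229 genes. As these genes may have been among those that formed cluster 7, this contrast is a description.

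**Figure D4:**
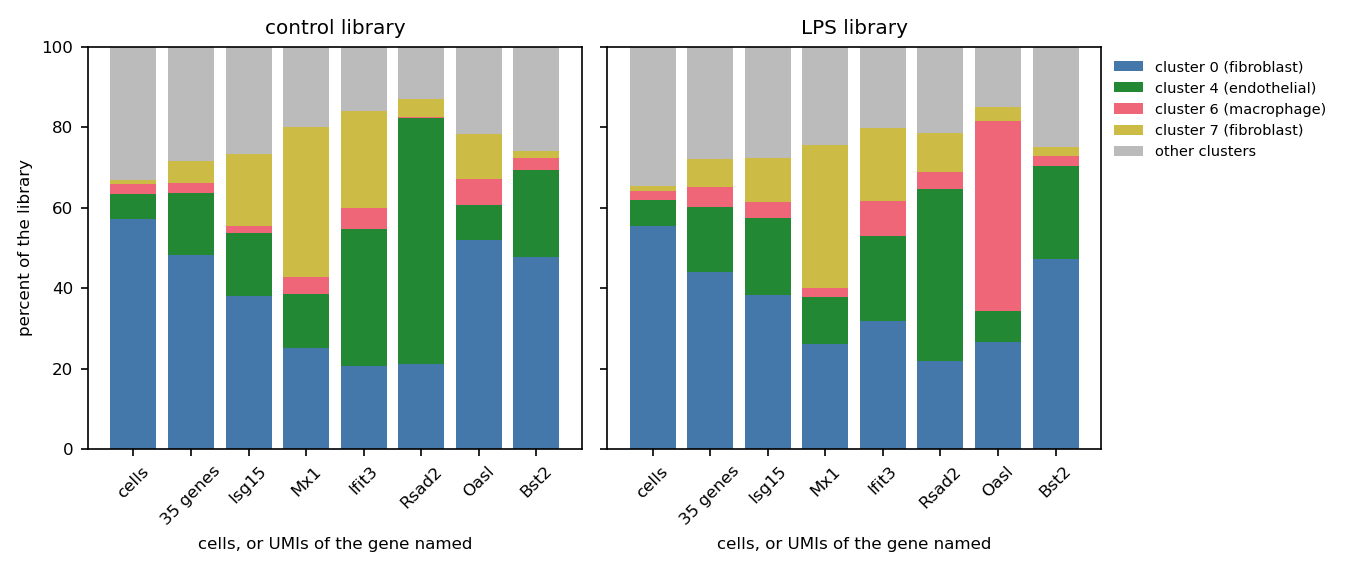
Percent of each library's cells, of the UMIs of the 35 genes, and of the UMIs of 6 single genes that lay in clusters 0, 4, 6 and 7 and in the other clusters, with control at left and LPS at right. Cluster 7 holds about 1% of the cells and 37.4% (control) and 35.6% (LPS) of *Mx1*, cluster 4 holds 61.1% and 42.8% of *Rsad2*, and cluster 6 goes from 6.62% to 47.4% of *Oasl*. The control share of *Mx1* in cluster 7 rests on fewer than 25% of its cells.

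Within cluster 7 the libraries still differed, and 20 of the 26 measured genes were at least 2-fold higher with LPS (4.56% of all genes). These genes may have been among those by which cells were placed in this cluster. The part of this placement in the ratios was not tested, so they describe the cells placed there. *Isg15* had 530 CPM in control and 1692 CPM in LPS cells, a ratio of 3.19 (2.94 to 3.46), *Ifit3* had 103 and 422 CPM, and *Mx1* had 48.0 and 180 CPM. *Rsad2* had 21.2 and 147 CPM, a ratio of 6.94 (4.75 to 10.5), *Ifit2* had 28.8 and 178 CPM, *Parp14* had 16.4 and 95.4 CPM, and *Dtx3l* had 17.1 and 88.2 CPM. The ratio was small for *Oasl*, at 87.0 and 118 CPM (1.35, 1.07 to 1.71), and for *Irf7*, at 48.0 and 67.8 CPM (1.41, 1.03 to 1.94). *Bst2* had 42.5 and 30.3 CPM, and its interval here (0.476 to 1.06) includes 1.

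The fibroblast label of cluster 7 was checked against its markers. The 8 fibroblast markers summed to 11708 CPM in control and 11513 CPM in LPS cells, close to the 11634 and 10684 CPM of cluster 0. Cluster 9, which has no cell type in the cell table, had higher sums of 17272 and 14504 CPM. The 10 macrophage markers summed to 17.1 and 10.5 CPM, with *Mrc1*, *Cd163* and *Fcgr3a* at 0 in both libraries, against 2030 and 1639 CPM in cluster 6. The 6 endothelial markers found summed to 152 and 61.2 CPM, against 2141 and 1926 CPM in cluster 4, and none of the 5 lymphocyte markers found had a UMI. The cells of cluster 7 were about as deep as those of cluster 0, with medians of 12786 (control) and 9681 (LPS) against 12968 and 9822 UMIs.

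Single cells differed in how evenly they held these genes. In cluster 0, 50.4% (49.1 to 51.6) of control cells and 76.2% (75.2 to 77.2) of LPS cells held at least 1 UMI of the 35 genes at a depth of 3000 UMIs, against 91.9% and 96.8% at full depth. The mean was 0.747 UMIs per cell in control and 1.91 in LPS cells. The Fano factor, the variance over the mean, is 1 where counting alone spreads the values, and it was 1.15 and 2.26. In the LPS cells of cluster 4 the mean was 5.61 UMIs, the Fano factor was 8.15, and the cells ranged from 0 to 66 UMIs, with the top 10% of cells holding 38.0% of the UMIs. The endothelial cells of cluster 5 had a like spread, with a mean of 3.63 UMIs and a Fano factor of 9.15 in LPS cells, against a Fano factor of 1.36 in control.

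In cluster 7 the Fano factor was lower with LPS. It was 7.48 in control, with a mean of 4.54 UMIs and a range from 0 to 43. In LPS cells it was 3.68, with a mean of 15.2 UMIs and 90% of cells between 7 and 28.9. Of the control cells, 1 held 28 UMIs and 1 held 43, and all others held 16 or fewer. The control value thus leans on very few cells, and the Fano factor without them was not calculated. Every one of the 144 LPS cells of cluster 7 had a UMI of these genes, with a median of 8 different genes. As these genes may have been among those that formed the clusters, this share and spread only describe the cells placed in cluster 7. At or above 10 UMIs, the lower quartile of the LPS cells of cluster 7, stood 14.8% of the LPS cells of cluster 4, 25.5% of the macrophages and 1.12% of cluster 0, or 412 cells outside cluster 7. *Oasl* was among the genes counted, and the macrophage share without it was not calculated. In clusters 0 and 4, cells that held *Isg15* had more UMIs of the other 34 genes in both libraries. In LPS cells of cluster 0 with a thinned *Isg15* UMI the mean of the other genes was 2.24 UMIs, and 1.33 in those without, and in cluster 4 it was 5.60 and 2.56. In control cells the means were 0.942 and 0.681 in cluster 0, and 2.61 and 1.55 in cluster 4. The direction was the same in the LPS cells of every cluster, but not in the control cells of clusters 8 and 9. Only 4 and 3 control cells there held *Isg15*, and none did in cluster 10.

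**Figure D5:**
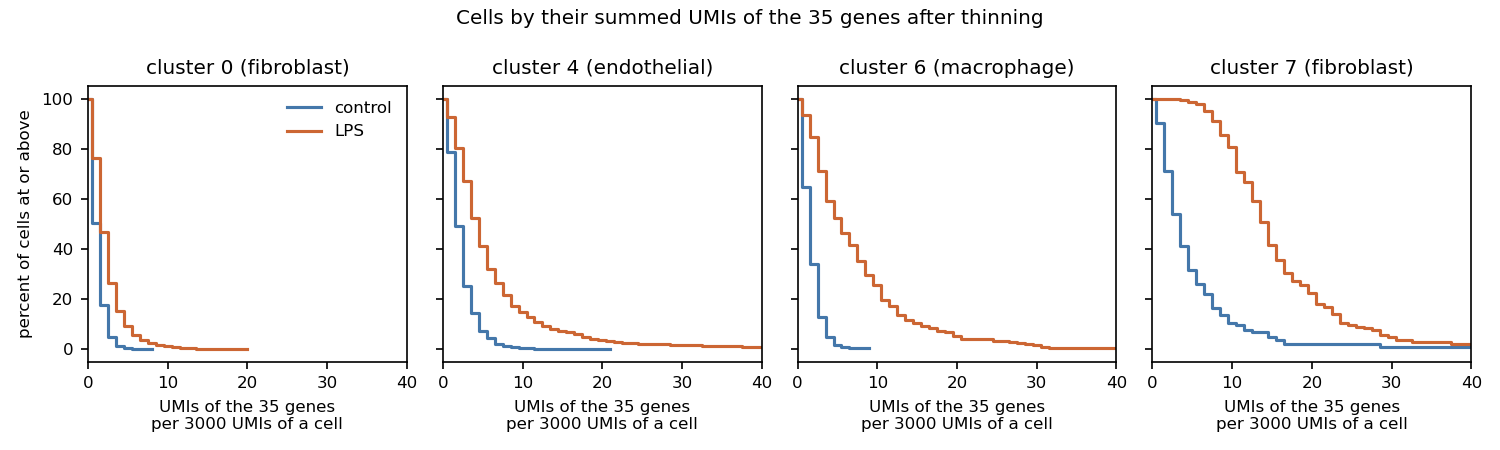
Percent of cells (vertical axis) with at least the number of UMIs of the 35 genes on the horizontal axis, after thinning each cell to 3000 UMIs, for control (blue) and LPS (orange) cells of clusters 0, 4, 6 and 7. The axis ends at 40 UMIs, which a few cells of cluster 4, 6 and 7 exceed. The LPS curve of cluster 7 stays near 100% up to about 6 UMIs, while those of clusters 4 and 6 fall from the start and end in long tails.

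The other genes of the pathway were counted from lists. Among the ligands, 7 genes were found, and *Ifnb1*, *Ifna2*, *Ifna4*, *Ifna5*, *Ifnk* and *Ifng* had 0 UMIs in either library, while *Ifne* had 2 UMIs in the control library. A count of 0 allows 0.0235 CPM over all LPS cells and 1.21 CPM in the LPS macrophages, so that transcripts of the 6 ligands at 0 were not detectable at this depth. Of the 7 receptor and kinase genes, 3 were at least 2-fold higher in cluster 0, against 3.43% of all genes. They were *Ifngr1* (34.9 and 95.9 CPM) and *Ifngr2* (23.8 and 65.9 CPM) of the interferon-gamma receptor and *Jak2* (19.0 and 189 CPM), its kinase. The ratio of *Jak2* was 10.00 (9.51 to 10.5). In the macrophages the ratio was 0.771 (0.637 to 0.931) for *Ifngr1* and 1.25 (1.06 to 1.47) for *Ifngr2*. The type I receptor differed little, with *Ifnar1* at 17.1 and 20.8 CPM and *Ifnar2* at 3.75 and 4.64 CPM in cluster 0. In the macrophages *Ifnar1* had 60.7 CPM in control and 27.0 CPM in LPS cells, a ratio of 0.444 (0.331 to 0.590). In cluster 4 its ratio was 0.745 (0.647 to 0.858). The kinase gene *Tyk2* had a ratio of 0.807 (0.713 to 0.913) in cluster 0 and of 0.484 (0.259 to 0.865) in the macrophages.

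Of the 10 genes found for the induction of interferon, 9 had at least 50 UMIs in cluster 0 and none of these passed 2-fold there in either direction. Of all genes there, 3.43% were at least 2-fold higher and 9.01% lower. *Irf3*, the factor that starts interferon-beta transcription, had 26.7 and 27.9 CPM. In the macrophages 4 of the 10 had at least 50 UMIs, and *Cd14*, the LPS co-receptor, was the 1 gene at least 2-fold higher (4.81% of all genes). It had 533 CPM in control and 1536 CPM in LPS cells, a ratio of 2.88 (2.72 to 3.05). The 1 gene at least 2-fold lower (12.1% of all genes) was *Tmem173* (STING), the adaptor of cytosolic DNA sensing, at 24.1 and 10.5 CPM (0.434, 0.267 to 0.687). Below that minimum, *Tlr4*, the LPS receptor, had 30 UMIs in control and 4 UMIs in LPS cells, and *Tlr3*, the sensor of double-stranded RNA, had 30 and 2. Among other factors, *Irf1* was at 9.49 and 37.8 CPM in cluster 0, a ratio of 3.98 (3.69 to 4.30). *Irf8* had 43 and 151 UMIs in cluster 0, a ratio of 4.31 (3.05 to 6.20), and over all cells its ratio was 3.19 (2.63 to 3.89). Below the minimum of 50 UMIs, *Irf8* went from 43 UMIs to 1 UMI in the macrophages, a ratio of 0.0291 (0.000721 to 0.171). *Socs1*, a feedback inhibitor of JAK kinases, went from 2 to 36 UMIs in cluster 7, also below that minimum. Of 15 further interferon-induced genes, 7 were at least 2-fold higher in cluster 0 (3.43% of all genes) and none lower (9.01%). These were *Cxcl10* (2.44 and 63.6 CPM), *Gbp2* (5.71 and 42.5 CPM), *Ifi47*, *Ifit1*, *Irgm*, *Tap1* and *Igtp*. The abundant *Ifitm3* (1680 and 2331 CPM) and *Ifi27* (1121 and 1282 CPM) differed by ratios of 1.39 and 1.14. In a list of 10 early NF-kappaB targets, 9 were at least 2-fold higher in cluster 0 (3.43% of all genes), with a median log2 ratio of 3.87. The lists were chosen with earlier results of these data known, so these counts are a description.

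The genes whose levels followed the sum of the 35 most closely were found by Pearson's correlation of log2(CPM + 1) over the 22 cluster and library pairs, among 9868 genes with at least 500 UMIs. The points share libraries and differ in depth, so the coefficients are a description. The 10 highest were *Gbp5* (0.914), *Gbp2* (0.909), *Trex1* (0.870), *Oas1k*, *Samd9*, *Irgm*, *Tap1*, *Cxcl10*, *Apol9a* and *Ubd* (0.786). *Gbp5*, a guanylate-binding protein, had 1.23 CPM in control and 32.6 CPM in LPS cells of cluster 0, and 27.4 and 187 CPM in cluster 7. *Trex1*, a DNA exonuclease, had 21.3 and 27.7 CPM in cluster 0 and 28.8 and 88.2 CPM in cluster 7. *Cxcl10*, a chemokine for T cells, had 127 and 1858 CPM in cluster 7.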

How the data were processed

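The deposited values are raw counts of UMIs per gene and cell, which the authors made without normalization, with a table of their cluster and cell type for each cell. Cell Ranger 2.2.0 and Seurat 2.3.4 are named in the submitters' processing notes. The paper's methods describe canonical correlation analysis of both libraries in Seurat before clustering. The genome build and annotation of the counts are not given in the sources used here. The control library held 11531 cells and 152624585 UMIs, and the LPS library 12689 cells and 127580475 UMIs.

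UMIs were summed per cluster and library with pandas 2.3.3 and numpy 2.4.6 under Python 3.11.15. The 95% intervals came from scipy 1.17.1, by the Clopper-Pearson method for shares, the exact Poisson method for levels and the exact conditional method for ratios. For log2 ratios, 0.5 UMI was added to each sum. Thinning drew UMIs without replacement, with 1 seed. No doublet caller was run, but 1 alternative dropped the deepest 8% of cells. The calculation was tested on simulated data. The members and lists were chosen with earlier results of these data known. A gene could be named if it was 1 of the 35, stood in a pathway or marker list, or was 1 of the 10 most similar in pattern. The 10 genes with the largest ratio of cluster 7 to cluster 0 in each library could be named too. In cluster 4 values were written out for only some of the genes with the highest CPM or the largest ratio, and *Trim25* and *Ifnar1* were added for comparison. Some genes of the lists were not found by symbol and are not analysed here. The alternatives were filters on depth and mitochondrial share, shared barcodes left out, the mean of the cells' own CPM, other minimums and depths, sums without *Isg15*, and, chosen after seeing the data, sums without *Oasl* or cluster 7 and ratios centred on the median gene.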

Additional observations from a re-analysis of the deposited data

How the results depend on the processing

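No paired analysis was possible because control and LPS cells came as 1 library each. Of 77 alternatives, 41 were of log2 ratios, and none of these reversed a direction. Counts and shares have no direction to reverse. Of all 77, 46 left the value within its counting error or, for counts, within 1.5 times, and 31 moved it. The log2 ratio of the summed genes was 1.38 in cluster 0, 1.48 in cluster 4, 2.43 in cluster 6 and 1.54 in cluster 7. Without *Isg15* it was 1.19, 1.19, 2.24 and 1.47. Centred on the median gene it was 1.51, 1.57 and 2.74 in clusters 0, 4 and 6. Thinned to 3000 UMIs it was 1.35, 1.59 and 1.74 in clusters 0, 4 and 7, and the mean of the cells' own CPM gave 1.55 in cluster 4 and 1.70 in cluster 7. Without the 8% of cells with the most UMIs it was 1.88 in cluster 7, whose 104 control cells are few. Without *Oasl* it was 1.62 in cluster 6. The count of genes at least 2-fold higher in cluster 6 was 9 of 20 (4.81% of all genes). It was 14 of 27 with a minimum of 20 UMIs (4.7% of all genes). With a minimum of 1 UMI, where more genes enter, it was 15 of 34, and the share of all genes is not given here. The cause of the other shifts was not tested. Over all cells the log2 ratio was 1.47, and 1.45 without cluster 7. Shares of cells depend on depth by construction, and at 1500 UMIs per cell 29.6% of control and 55.3% of LPS cells of cluster 0 held a UMI of the 35 genes. Small clusters and rare genes such as *Zbp1*, *Oas2* and *Oas3* are limited by depth.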

Other observations

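Genes outside the list of 35 also stood high in cluster 7. Among the 10 genes with the largest ratio of cluster 7 to cluster 0, counted over genes in at least 25% of the cells of cluster 7, those outside the list were *Cxcl10*, *Gbp2* and *RT1-T24-3*, a class I histocompatibility gene, in control cells. In LPS cells they were *Cxcl10*, *Cxcl11*, a chemokine that shares its receptor with *Cxcl10*, and *RGD1309362*. *Cxcl11* had 7.14 CPM in cluster 0 and 126 CPM in cluster 7 of the LPS library, and *RT1-T24-3* had 18.3 and 156 CPM in the control library. The clusters were formed with these genes among others, so that this is a description.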
